A study of Mus musculus with 9 samples.

Results

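The RNAseq data were obtained from RAW264.7 cells, a macrophage-like line from a mouse tumour. The 10 enzymes of the pentose phosphate pathway and of cytosolic NADPH production examined here were *G6pdx*, *Pgls*, *Pgd*, *Rpia*, *Rpe*, *Tkt*, *Taldo1*, *Me1*, *Idh1* and *Nadk*. The rule names them by symbol, uses none of their measured values, and takes them from the 54432 genes of the count table. The members were nevertheless chosen with earlier results of these data known. All 10 were among the 12637 genes that exceeded 10 counts in 3 or more libraries. There were 3 groups of 3 libraries: untreated cells (control), cells given 1 mM VLDL-sized emulsion particles (VLDLsep) for 6 hours and cells given 1 mM chylomicron-sized particles (CHYLsep) for 6 hours. Both kinds of particle were sunflower oil emulsified with sodium caseinate, and the control cells received no emulsion and, as far as the methods state, no caseinate. All cells were of the same unmodified line at passages 13 to 15 and were kept in the same medium with serum, and because the study pooled the samples that 1 experiment gave for a condition, a library stands for a pool.

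NADPH is the electron donor of reductive synthesis and of antioxidant defence. The oxidative arm of the pentose phosphate pathway makes it from glucose-6-phosphate: glucose-6-phosphate dehydrogenase (*G6pdx*) and 6-phosphogluconate dehydrogenase (*Pgd*) each reduce NADP, with a lactonase (*Pgls*) between them. The non-oxidative arm interconverts the resulting pentose phosphates and returns carbon to glycolysis, malic enzyme (*Me1*) and isocitrate dehydrogenase (*Idh1*) make cytosolic NADPH from malate and isocitrate, and NAD kinase (*Nadk*) makes NADP itself. In macrophages NADPH feeds the phagocyte oxidase, the glutathione and thioredoxin reductases and the synthesis of fatty acids and sterols.

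*G6pdx*, *Pgd* and *Me1* are textbook targets of the transcription factor NRF2, which binds antioxidant response elements, and the promoters of the members were therefore searched for the cores TGACNNNGC and TGAGNNNGC on both strands. The 14 promoter windows of the 10 genes, from 250 bases before to 50 bases after a start in RefSeq (GRCm38.p6), held 5 such matches in 5 windows of 5 genes, whereas 27.8% of all 32851 windows held at least 1. Each match is shown in capitals on the strand of its gene, 5′ to 3′, with 10 bases on either side.
*G6pdx* (chrX:74428919-74428947, minus strand): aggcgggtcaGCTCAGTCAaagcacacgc
*Pgd* (chr4:149166061-149166089, minus strand): atttcagagcTGACATTGCactgatcgga
*Me1* (chr9:86695902-86695930, minus strand): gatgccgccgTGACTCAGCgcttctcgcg
*Taldo1* (chr7:141391929-141391957, plus strand): tgaggcttacTGAGCGCGCgtctcagtag
*Idh1* (chr1:65186469-65186497, minus strand): aggacttaacGCTGCCTCAgccatcctga

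The matches of *G6pdx* and *Idh1* lie on the strand opposite to the gene, and the match of *Pgd* belongs to the second of its annotated starts. They begin 57 bases before the start in *G6pdx*, 6 before it in *Me1*, 221 before it in *Taldo1*, 8 before it in *Idh1* and 3 after it in *Pgd*. The core TGACNNNGC is in 12.4% of all windows and was found in *G6pdx*, *Pgd* and *Me1*. The looser core TGAGNNNGC is in 17.6% of all windows and was found in *Taldo1* and *Idh1*. The sterol regulatory element TCACNCCAC, in 1.2% of all windows, was found in none of the 10 genes, and the E-box CACGTG, in 7.2%, was found in *Nadk* alone. A match is a description of the letters in this window and not evidence of binding.

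Depth was even, at 22393893 to 22856792 estimated counts per library. All 9 macrophage markers examined were detected, from 354 counts in the lowest library for *Adgre1* upwards. Of 22 markers of T cells, B cells, epithelium, fibroblasts, endothelium and neutrophils, 4 passed the count filter, none exceeded 55 counts in any library, and *Cd8a*, *Epcam* and *Krt8* were among the 8 at 0 counts in every library. The summed level of these 22 markers was 4.51 to 5.74 cpm (counts scaled to a fixed library total) in the control libraries, 5.32 to 5.97 cpm after VLDL-sized and 5.97 to 6.3 cpm after CHYL-sized particles, and none of the 4 that could be tested differed from control. The summed level of the 9 macrophage markers was 6868 to 6996 cpm in control, 6340 to 6558 cpm after VLDL-sized and 6484 to 6715 cpm after CHYL-sized particles. By limma, 5 of the 9 fell and 1 rose after VLDL-sized particles, and 2 fell after CHYL-sized particles. *Fcgr1*, a high-affinity IgG receptor, fell with log2 fold changes of -0.83 and -0.68 (adjusted p = 8e-05 and 0.00044), and *Ptprc* (CD45) with -0.31 and -0.23 (adjusted p = 0.0023 and 0.016), both singled out after their values were seen. The part of these changes in the results was not tested. The libraries numbered 3 stood apart in every group: their deviations from the group means correlated across genes with r of 0.217 to 0.277 between groups, against 0.000 to 0.101 for those numbered 1 or 2. Without the 3 libraries numbered 3, the counts of members called in the comparisons below were the same.

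Treatment with either particle raised *G6pdx*, *Pgd*, *Taldo1*, *Tkt* and *Me1* and lowered *Rpia*, whereas *Pgls*, *Rpe*, *Idh1* and *Nadk* did not pass the test. Thus 6 of 10 members differed from control after VLDL-sized particles at an adjusted p below 0.05, where 35.6% of all genes tested did, and 6 of 10 after CHYL-sized particles, where 25.7% did. In each comparison 5 members were higher (17.8% and 12.7% of all genes) and 1 was lower (17.9% and 13.0%). The libraries of 6 members after VLDL-sized and of 7 after CHYL-sized particles did not overlap with control, as was so for 47.4% and 41.7% of all genes. The median log2 fold change, or SLR, of the 10 members was 0.17 after VLDL-sized and 0.18 after CHYL-sized particles, beside medians of -2.8e-04 and 0.00133 over all genes. Both comparisons use the same control libraries, so they are not separate evidence of direction. Because the members were chosen with earlier results of these data known, the shares over all genes describe the set and do not test it. In these bulk samples, fewer cells with a transcript and less of it per cell cannot be told apart.

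**Figure D1:**
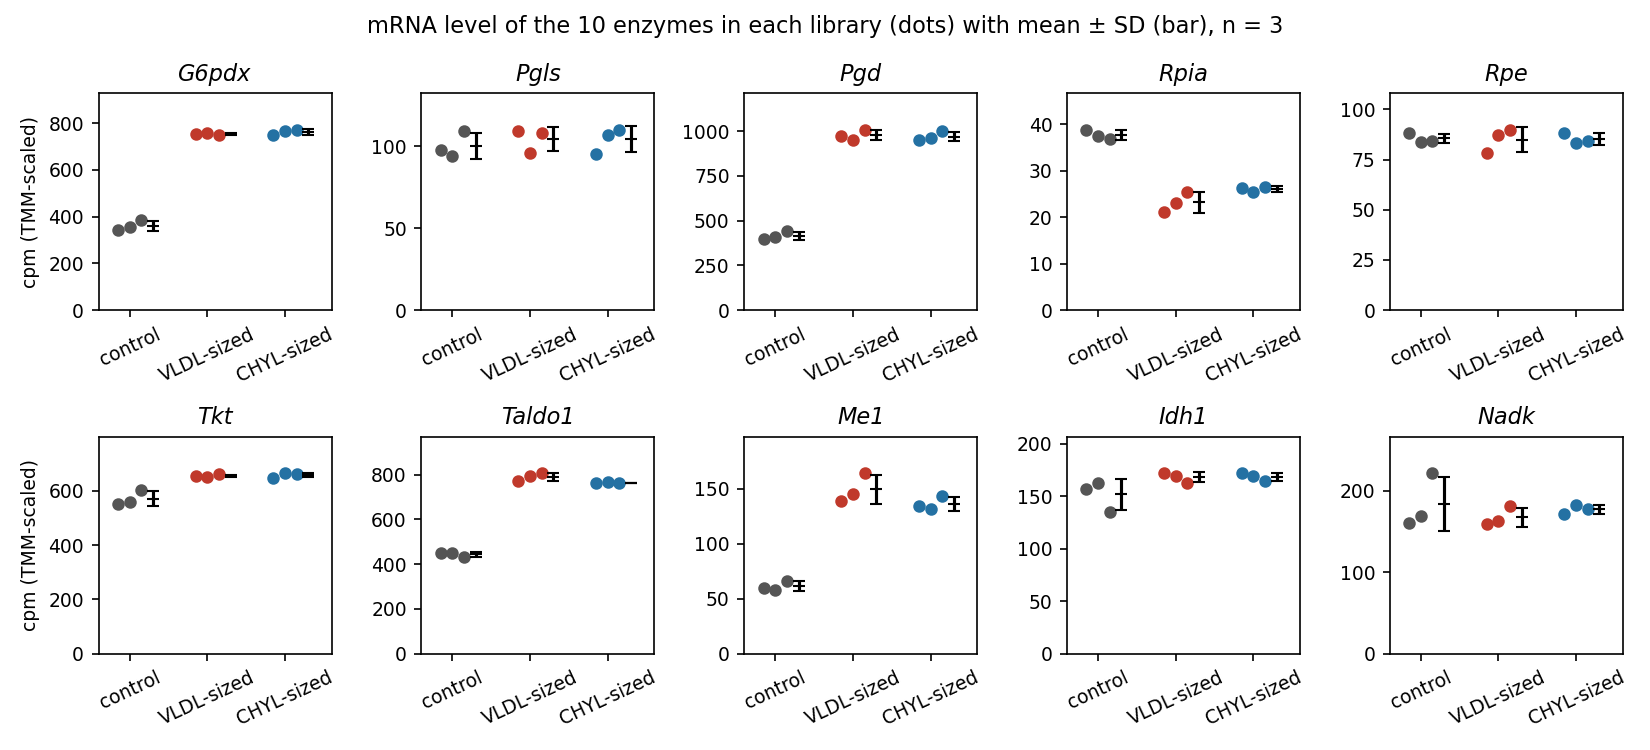
Level of each of the 10 enzymes in cpm (linear axes starting at 0) in the 3 control, 3 VLDL-sized and 3 CHYL-sized libraries, with points for libraries and bars for the mean ± SD. For *G6pdx*, *Pgd*, *Tkt*, *Taldo1* and *Me1* every treated library lies above every control library, and for *Rpia* every treated library lies below.

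In the oxidative arm, *G6pdx* (ENSMUSG00000031400, chromosome X, 74409483 to 74429194, minus strand), the enzyme that commits glucose-6-phosphate to the pathway, was at 342, 355 and 385 cpm in the control libraries. It was at 755, 757 and 751 cpm after VLDL-sized and at 748, 768 and 773 cpm after CHYL-sized particles. All 6 treated libraries were thus above all 3 control libraries, and the VLDL-sized libraries were the closest to each other. The SLR was 1.07 ± 0.05 (SE, n = 3 per group, adjusted p = 1.9e-07 by limma) for VLDL-sized and 1.08 ± 0.05 (adjusted p = 2.2e-07 by limma) for CHYL-sized particles, that is, 2.10-fold and 2.12-fold. Only 2.52% and 1.92% of the genes tested had a higher SLR.

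*Pgd* (ENSMUSG00000028961, chromosome 4, 149149991 to 149166771, minus strand), which carries out the second NADP-reducing step and releases ribulose-5-phosphate, was at 395, 407 and 440 cpm in control. It was at 975, 952 and 1009 cpm after VLDL-sized and at 949, 961 and 1001 cpm after CHYL-sized particles, again without overlap with control. The SLR was 1.24 ± 0.05 (adjusted p = 9.1e-08 by limma) and 1.23 ± 0.05 (adjusted p = 1.0e-07 by limma), which were the 235th and 182nd highest of all genes.

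The lactonase between these enzymes, *Pgls* (ENSMUSG00000031807, chromosome 8, 71592176 to 71601092, plus strand), was at 97.5, 93.8 and 109 cpm in control, at 109, 95.9 and 108 cpm after VLDL-sized and at 95.1, 107 and 110 cpm after CHYL-sized particles. The 3 groups overlapped. The SLR of 0.06 for VLDL-sized particles had a 95% interval of -0.11 to 0.23 (adjusted p = 0.586), and that of 0.06 for CHYL-sized particles one of -0.12 to 0.23 (adjusted p = 0.648). The oxidative arm was therefore not changed evenly: the ratio of *Pgd* to *Pgls*, in cpm per kb of transcript, was 1.94 to 2.08 in control, 4.30 to 4.75 after VLDL-sized and 4.32 to 4.78 after CHYL-sized particles. The ratio of *Pgd* to *G6pdx* moved less, from 1.37 to 1.38 in control to 1.5 to 1.61 and 1.5 to 1.55, but without overlap with control. This and the other ratios below restate the levels of single members and are not separate tests. How often other pairs of genes lie apart was not computed.

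Some reads of *G6pdx* could belong to other genes. Of its 31-base words, 14.8% also occur in *G6pd2*, a retrogene copy that was at 0 counts in every library, which allows up to 3 counts in each. On the opposite strand *G6pdx* overlaps *Ikbkg*, the regulatory subunit of the IκB kinase complex, whose mean level was 35.9 cpm in control, 63.6 cpm after VLDL-sized and 65.4 cpm after CHYL-sized particles (SLR 0.83 and 0.87, adjusted p = 1.5e-06 and 1.4e-06). This overlap is one of annotated gene spans, and whether the transcripts share a stretch was not examined. Strand-specific counting is not stated, so reads from any shared stretch cannot be told apart. The mean level of *G6pdx* itself was 361 cpm in control, 755 cpm after VLDL-sized and 763 cpm after CHYL-sized particles.

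In the non-oxidative arm, *Taldo1* (ENSMUSG00000025503, chromosome 7, 141392199 to 141402968, plus strand), the transaldolase that moves 3-carbon units between sugar phosphates, was at 450, 450 and 432 cpm in control. It was at 772, 793 and 807 cpm after VLDL-sized and at 764, 765 and 764 cpm after CHYL-sized particles, so that all treated libraries were above control and the CHYL-sized libraries were nearly equal. The SLR was 0.83 ± 0.04 (adjusted p = 3.0e-07 by limma) and 0.78 ± 0.04 (adjusted p = 6.0e-07 by limma), or 1.78-fold and 1.72-fold. Of the 31-base words of *Taldo1*, 22.45% also occur in the annotated gene *Gm17823*, which was at 0 counts in every library.

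*Tkt* (ENSMUSG00000021957, chromosome 14, 30548359 to 30574720, plus strand), the transketolase that transfers 2-carbon units, moved the same way but less. It was at 552, 561 and 602 cpm in control, at 655, 651 and 661 cpm after VLDL-sized and at 649, 666 and 662 cpm after CHYL-sized particles. The SLR was 0.20 ± 0.05 (adjusted p = 0.0062 by limma) and 0.21 ± 0.05 (adjusted p = 0.0074 by limma), a 1.15-fold rise in both cases, and about 24.9% and 20.6% of all genes had a higher SLR. With scaling to library size only, the VLDL-sized comparison no longer passed (SLR 0.11, adjusted p = 0.055). The ratio of *Taldo1* to *Tkt* per kb rose from 1.70 to 1.93 in control to 2.79 to 2.89 after VLDL-sized and 2.72 to 2.79 after CHYL-sized particles, with no overlap between either treatment and control.

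*Rpia* (ENSMUSG00000053604, chromosome 6, 70765720 to 70792232, minus strand), the isomerase that makes ribose-5-phosphate for nucleotides, was the only member that fell. It was at 38.9, 37.5 and 36.8 cpm in control, at 21.1, 23.1 and 25.5 cpm after VLDL-sized and at 26.3, 25.4 and 26.5 cpm after CHYL-sized particles. No treated library reached the lowest control library. The SLR was -0.70 ± 0.07 (adjusted p = 3.6e-05 by limma) and -0.53 ± 0.07 (adjusted p = 3.2e-04 by limma), and only 5.86% and 6.62% of all genes had a lower one. The epimerase that competes with it for ribulose-5-phosphate, *Rpe* (ENSMUSG00000026005, chromosome 1, 66700831 to 66719805, plus strand), was at 83.7 to 88.3 cpm in control, 78.0 to 89.9 cpm after VLDL-sized and 83.1 to 88.4 cpm after CHYL-sized particles. Its SLR was -0.01 (adjusted p = 0.910) and -0.0048 (adjusted p = 0.968), and the ratio of *Rpia* to *Rpe* per kb went from 0.647 to 0.664 in control to 0.394 to 0.421 and 0.441 to 0.468. *Rpe* overlaps *Kansl1l* on the opposite strand, which was at 7.92 to 8.69 cpm in the group means.

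**Figure D2:**
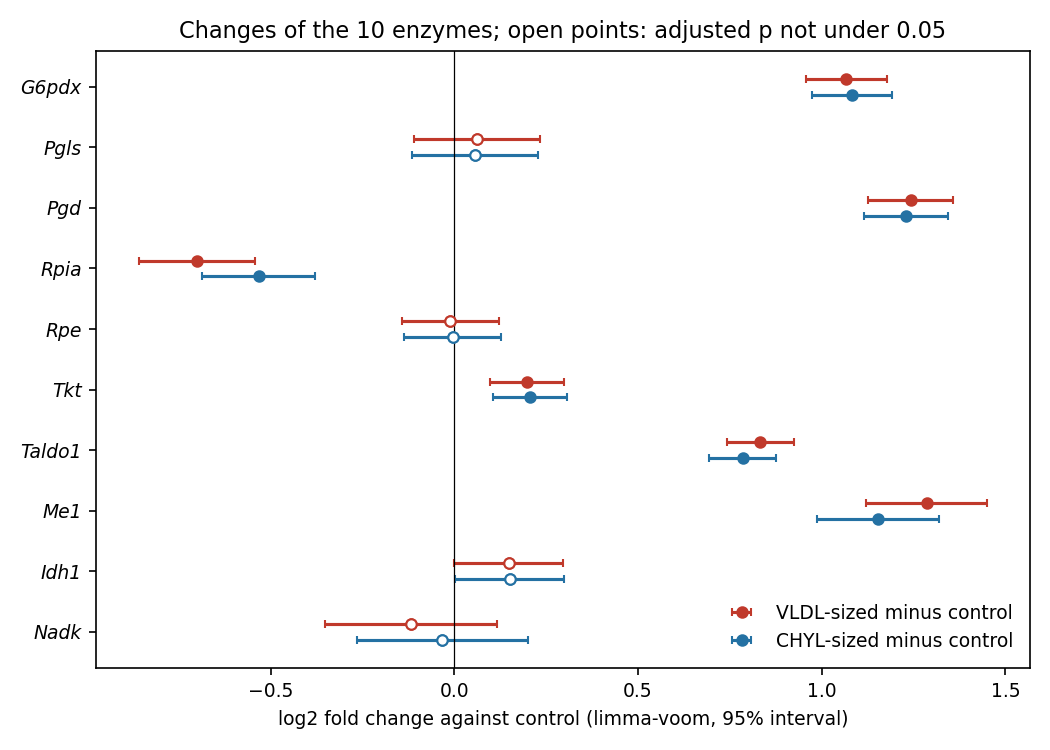
SLR of each enzyme against control with its 95% interval (limma, n = 3 per group) for VLDL-sized and CHYL-sized particles, with open points where the adjusted p was not under 0.05. The points of *Me1*, *Pgd* and *G6pdx* lie above 1 for both particles, *Rpia* is the only one whose intervals lie below 0, and the intervals of *Pgls*, *Rpe* and *Nadk* include 0.

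Of the NADPH-producing enzymes outside the pathway, *Me1* (ENSMUSG00000032418, chromosome 9, 86581371 to 86695953, minus strand) rose by a similar factor as *Pgd*. It was at 59.5, 58.1 and 66.1 cpm in control, at 139, 145 and 164 cpm after VLDL-sized and at 134, 131 and 143 cpm after CHYL-sized particles, with all treated libraries above control. The SLR was 1.29 ± 0.07 (adjusted p = 9.3e-07 by limma) and 1.15 ± 0.07 (adjusted p = 2.8e-06 by limma), or 2.44-fold and 2.22-fold. Of its 31-base words, 34.15% occur in other annotated genes, mostly in *Gm7049*, which had at most 3.8 counts in any library.

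*Idh1* (ENSMUSG00000025950, chromosome 1, 65158616 to 65186500, minus strand) was at 157, 163 and 135 cpm in control, at 172, 169 and 163 cpm after VLDL-sized and at 172, 169 and 164 cpm after CHYL-sized particles. The control library numbered 3 was the lowest of the 9, and the treated libraries were nearly level. The SLR was 0.15 ± 0.07 in both comparisons (adjusted p = 0.112 and 0.129), and without control replicate 3 it was 0.07 in both (adjusted p = 0.34 and 0.36). The CHYL-sized libraries did not overlap with control. The ratio of *Me1* to *Idh1* per kb rose from 0.249 to 0.342 in control to 0.564 to 0.705 after VLDL-sized and 0.543 to 0.610 after CHYL-sized particles.

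*Nadk* (ENSMUSG00000029063, chromosome 4, 155562378 to 155591001, plus strand) was at 161, 169 and 222 cpm in control, at 159, 163 and 181 cpm after VLDL-sized and at 172, 183 and 178 cpm after CHYL-sized particles. The control library numbered 3 stood above all others and widened the spread of the control group. The SLR was -0.12 (95% interval -0.35 to 0.12, adjusted p = 0.424) and -0.03 (adjusted p = 0.857), and without that library it was 0.03 and 0.11, so no direction could be given.

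Levels per kb of the longest coding transcript allow a rough comparison of genes. The isoform expressed was not determined, so close places in the order depend on this choice of length. On this scale *Taldo1* was the most abundant member in all 3 groups, at 326 cpm per kb in control, 581 after VLDL-sized and 561 after CHYL-sized particles. In control it was followed by *Pgd* (187), *Tkt* (177), *G6pdx* (136), *Pgls* (94.2), *Idh1* (66.0), *Nadk* (58.3), *Rpe* (31.5), *Rpia* (20.6) and *Me1* (18.6). The libraries of *Pgd* and *Tkt*, and those of *Idh1* and *Nadk*, overlapped, and all other neighbours in this order were apart. After treatment, *G6pdx* stood above *Tkt* (285 against 203 cpm per kb after VLDL-sized, 288 against 204 after CHYL-sized particles). *Me1* was no longer the lowest but lay above *Rpe* and *Rpia*, at 45.4 and 41.3 cpm per kb. Every neighbour in the order after treatment was apart. The summed level of the 10 members was 2341 to 2513 cpm in control, 3834 to 3960 cpm after VLDL-sized and 3798 to 3905 cpm after CHYL-sized particles.

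**Figure D3:**
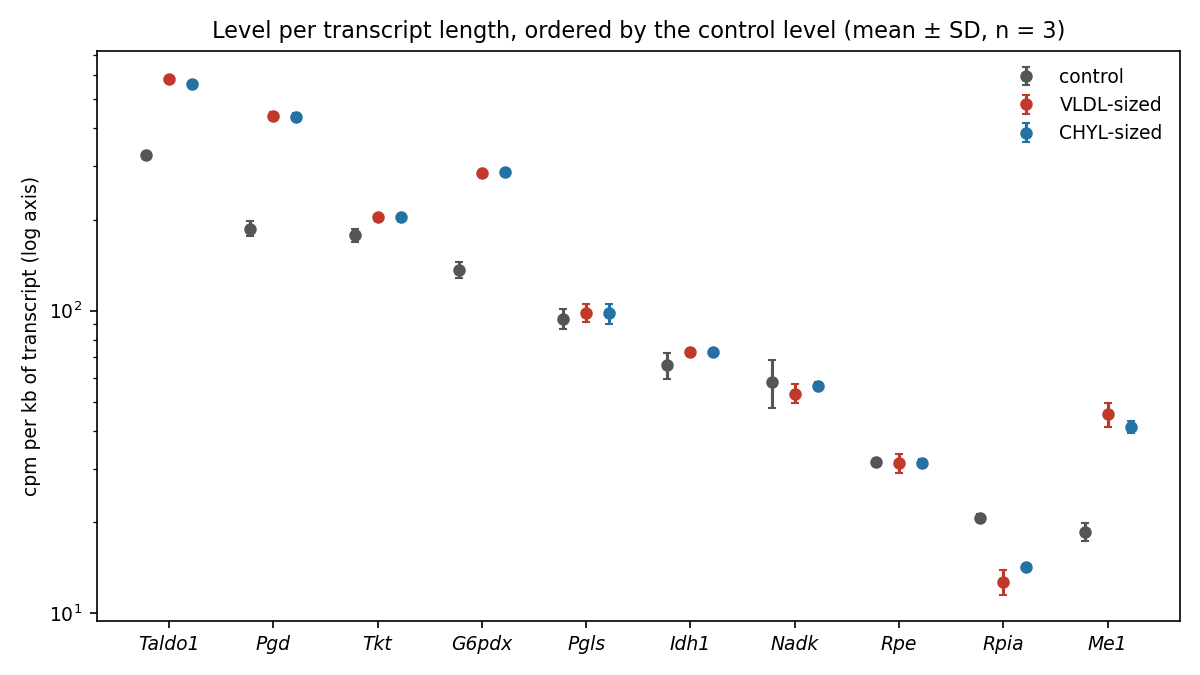
Mean level of each enzyme per kb of its longest coding transcript, in cpm per kb on a log axis, in control, VLDL-sized and CHYL-sized libraries, with error bars for the SD over 3 libraries. *Taldo1* is highest in all 3 groups, *G6pdx* moves from 136 to 285 and 288, and *Me1* moves from the lowest place in control to above *Rpe* and *Rpia*.

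**Figure D4:**
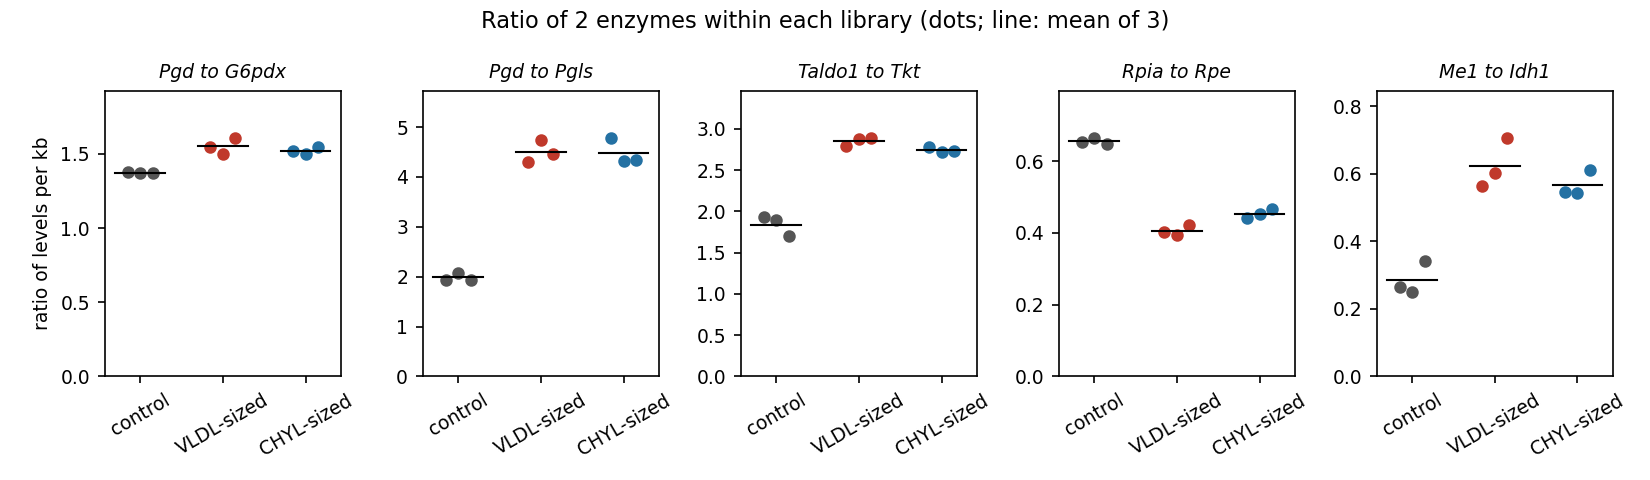
Ratio of 2 members within each library, from levels per kb, for control, VLDL-sized and CHYL-sized libraries, with 1 point per library. In all 5 ratios the treated libraries lie apart from control: *Rpia* to *Rpe* is lower, and *Pgd* to *G6pdx*, *Pgd* to *Pgls*, *Taldo1* to *Tkt* and *Me1* to *Idh1* are higher. The ratios restate the changes of single members, and the share of other gene pairs that lie apart was not computed.

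The effect of particle size was examined by comparing VLDL-sized with CHYL-sized libraries directly. By limma, 0 of the 10 members and 0 of all genes tested differed after adjustment. Of the 12637 genes, 813 had an unadjusted p below 0.05 by limma, where a share of 0.05 would be expected if none differed. The edgeR test called 0 genes and DESeq2 called 24, none of them a member. The intervals of the difference were narrow for the enzymes that rose: -0.13 to 0.09 on the log2 scale for *G6pdx*, -0.10 to 0.13 for *Pgd* and -0.11 to 0.09 for *Tkt*. *Me1* was 0.13 higher after VLDL-sized particles (95% interval -0.03 to 0.29, adjusted p = 0.807). *Taldo1* was 0.05 higher (95% interval -0.04 to 0.14, adjusted p = 0.916), and its libraries did not overlap between the particles, as was so for 11.3% of all genes. *Rpia* was the only member whose interval lay on 1 side of 0: its SLR of VLDL-sized against CHYL-sized particles was -0.17 (95% interval -0.34 to -0.0020), which did not pass after adjustment (unadjusted p = 0.048, adjusted p = 0.775).

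Other genes of NADPH metabolism were examined in 6 lists, whose counts are to be read against the 35.6% (VLDL-sized) and 25.7% (CHYL-sized) of all genes that were called. Among 13 neighbours of the pathway, 10 were tested, and 3 rose and 1 fell after either particle (median SLR 0.09 and 0.08). *H6pd*, the endoplasmic reticulum enzyme that carries out the steps of *G6pdx* and *Pgls*, went from 39.5 ± 1.07 cpm (SD, n = 3) to 56.5 ± 3.26 and 56.4 ± 1.96 cpm (SLR 0.51 for both, adjusted p = 8.4e-05 and 1.4e-04). *Pgm1*, which links glycogen to glucose-6-phosphate, rose with SLR 0.63 and 0.46 (adjusted p = 8.3e-05 and 0.0011), and *Tigar*, a fructose-2,6-bisphosphatase, with SLR 0.28 and 0.32 (adjusted p = 0.0037 and 0.0028). *Prps2*, which converts ribose-5-phosphate to the precursor of nucleotides and so acts just after *Rpia*, fell from 58.0 ± 2.9 cpm to 39.9 ± 2.79 and 43.7 ± 2.41 cpm (SLR -0.54 and -0.41, adjusted p = 1.7e-04 and 0.0015). *Prps1*, of the same step, was at a higher level and did not pass: 75.2 cpm in control, 80.3 and 78.7 cpm after the particles (SLR 0.09 and 0.06, adjusted p = 0.48 and 0.67 by limma). It is given here outside the naming rule. The paralogs *G6pd2* and *Tktl2* were at 0 counts and *Tktl1* at no more than 1 count.

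The list of hexose entry held 7 genes: glucose transporters, hexokinases and glucose-6-phosphate isomerase. Of these, 3 rose after either particle, and 1 fell after VLDL-sized particles (median SLR 0.11 and 0.14). The glucose transporter *Slc2a1* went from 78.3 ± 12.8 cpm to 245 ± 27.0 and 225 ± 29.9 cpm (SLR 1.65 ± 0.13 and 1.53, adjusted p = 5.5e-06 and 1.5e-05). The hexokinases *Hk3* (SLR 0.47 and 0.39, adjusted p = 1.7e-04 and 9.5e-04) and *Hk2* (SLR 0.44 and 0.25, adjusted p = 0.0018 and 0.0497) were also called higher. The call of *Hk2* after CHYL-sized particles lay at the threshold and was lost in 10 of 21 alternatives, among them library size only, no filter and the fits without any 1 of the control or CHYL-sized libraries (adjusted p up to 0.17). The transporter *Slc2a6* fell after VLDL-sized particles (SLR -0.22, adjusted p = 0.041) and had an SLR of -0.19 after CHYL-sized particles (adjusted p = 0.095). The remaining genes, given here outside the naming rule, did not pass. *Hk1*, at 156 cpm in control, had an SLR of 0.02 and 0.0044 (adjusted p = 0.91 and 0.98 by limma). *Slc2a3*, at 100 cpm, had 0.0028 and 0.02 (adjusted p = 0.97 and 0.79 by limma). *Gpi1*, the isomerase, had 0.11 and 0.14 (adjusted p = 0.16 and 0.089 by limma).

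The list of enzymes that make NADPH or NADP elsewhere in the cell was divided. It also held mitochondrial counterparts of members, and not every enzyme in it makes NADPH. Of 11 tested among 13, 3 rose and 4 fell after either particle (median SLR -0.12 and -0.11). *Nadk2*, the mitochondrial NAD kinase, went from 29.2 ± 1.18 cpm to 52.1 ± 1.21 and 51.2 ± 3.99 cpm (SLR 0.83 and 0.81, adjusted p = 9.1e-06 and 1.9e-05), and *Mthfd2*, of mitochondrial folate metabolism, rose with SLR 0.83 and 0.62 (adjusted p = 0.0043 and 0.027). *Aldh1l1*, a cytosolic folate enzyme that makes NADPH, fell with SLR -0.74 and -0.63 (adjusted p = 8.4e-05 and 3.6e-04), *Aldh4a1*, of proline breakdown, with SLR -0.43 and -0.37 (adjusted p = 0.0023 and 0.0082), and the mitochondrial *Idh2* with SLR -0.23 and -0.17 (adjusted p = 0.0047 and 0.029). *Me2*, the mitochondrial counterpart of *Me1*, had an SLR of -0.03 and -0.11 (adjusted p = 0.823 and 0.352), and *Me3* had no more than 2.77 counts. The 7 calls after CHYL-sized particles became 3 without control replicate 2 and 4 without CHYL-sized replicate 1 or 3.

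Among enzymes that spend NADPH, the list of reductases for glutathione, thioredoxin, quinones and heme had the highest median of the lists: 11 of 16 rose after either particle, and 2 fell after VLDL-sized and 0 after CHYL-sized particles (median SLR 1.10 and 0.97). The list also holds the heme oxygenases *Hmox1* and *Hmox2*, which are not reductases and take electrons from NADPH through *Por*. *Gsr*, which regenerates glutathione, went from 92.3 ± 9.35 cpm to 433 ± 48.6 and 411 ± 51.3 cpm (SLR 2.23 ± 0.11 and 2.15, adjusted p = 2.2e-07 and 3.7e-07). *Cbr3*, a carbonyl reductase, went from 4.59 ± 0.0768 cpm to 30.8 ± 2.69 and 32.3 ± 3.4 cpm (SLR 2.74 and 2.80), and *Nqo1* and *Hmox1* also rose, from 0.170 and 263 cpm to 5.20 and 7114 cpm after VLDL-sized particles. *Nqo1* was near the floor in control, with 1 count in its lowest library, and passed the count filter through the treated libraries.

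The enzymes listed under reductive lipid synthesis moved the other way. The list also holds desaturases and the genes *Decr1* and *Decr2*, so not every step in it is synthesis that draws on NADPH directly. Of 18 tested among 19, 12 fell and 1 rose after either particle (median SLR -0.68 and -0.64). *Fdft1*, squalene synthase, went from 123 ± 4.68 cpm to 37.0 ± 4.76 and 41.9 ± 2.32 cpm (SLR -1.74 ± 0.08 and -1.56, adjusted p = 1.9e-07 and 4.5e-07). *Cyp51*, of sterol synthesis, had an SLR of -1.66 and -1.65 (adjusted p = 1.2e-05 and 2.0e-05), and the desaturases *Scd2* and *Scd1* fell to 143 and 1.18 cpm after VLDL-sized particles from 1282 and 9.41 cpm in control. The gene that rose was *Hsd17b12*, of fatty acid elongation (SLR 0.25 and 0.22, adjusted p = 0.016 and 0.035), which was singled out after its values were seen and did not pass with scaling to library size only.

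Of the phagocyte oxidase and other NADPH users, 12 of 16 were tested: 2 rose and 4 fell after VLDL-sized and 1 rose and 1 fell after CHYL-sized particles (median SLR -0.03 for both). The oxidase subunit *Ncf1* fell with SLR -0.21 and -0.20 (adjusted p = 0.020 and 0.033). The subunit *Ncf4* fell after VLDL-sized particles (SLR -0.24, adjusted p = 0.026) and did not pass after CHYL-sized particles (SLR -0.16, adjusted p = 0.14). The 6 calls after VLDL-sized particles became 3 without control replicate 1, control replicate 3 or VLDL-sized replicate 1, and the 2 calls after CHYL-sized particles became 1 without control replicate 1 or 2 or CHYL-sized replicate 3, 4 without replicate 3 of every group, 5 with the replicate block or the term for replicate 3 and 6 with library size only. By limma, no gene of the 6 lists differed between VLDL-sized and CHYL-sized particles.

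**Figure D5:**
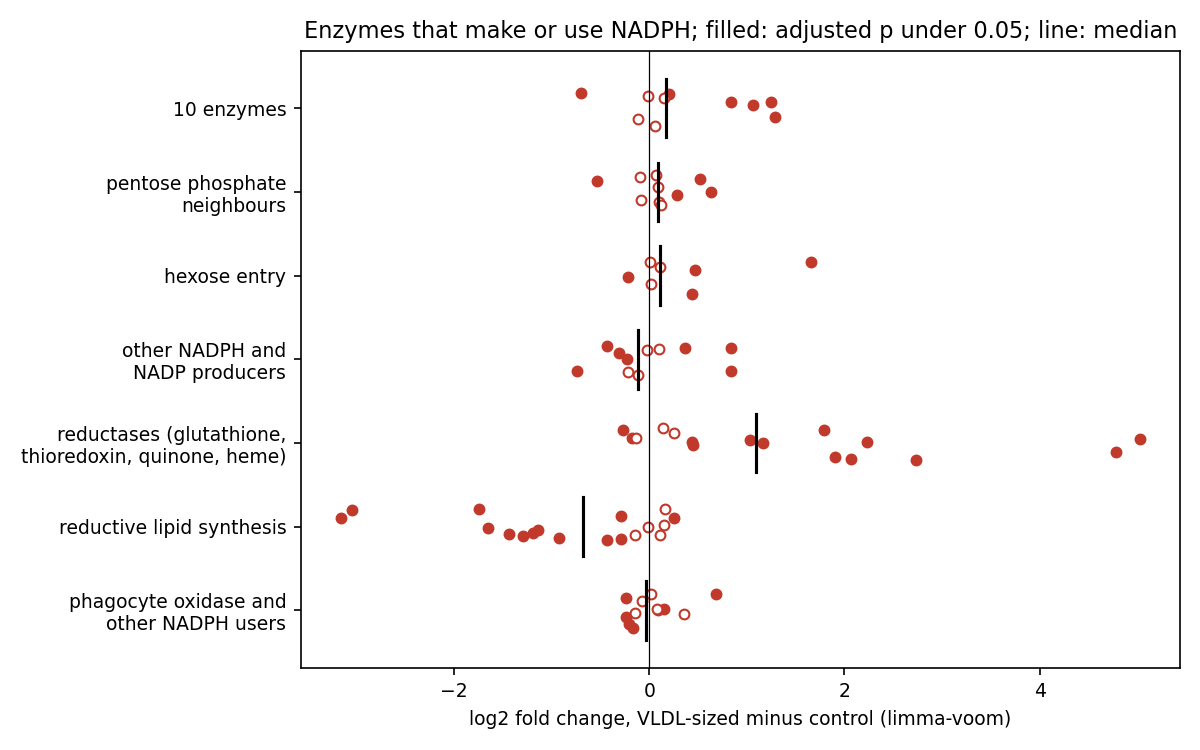
Log2 fold change of VLDL-sized particles against control for each tested gene of the 10 members and the 6 lists, with filled points for an adjusted p under 0.05, open points for the others and a line at each median. The median is 1.10 for the reductases, -0.68 for reductive lipid synthesis and between -0.12 and 0.17 for the other rows.

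The genes whose level followed that of *G6pdx* most closely over the 9 libraries, among 10596 genes with a mean of at least 50 counts, were *Akr1b8* (an aldo-keto reductase, r = 0.9994), *Pgd* (r = 0.9987) and *Gsta3* (a glutathione S-transferase, r = 0.9986). *Akr1b8* went from 181 cpm in control to 755 and 764 cpm, and *Gsta3* from 0.142 cpm to 11.9 and 11.2 cpm. *Gsta3* was thus near the floor in control and reached the mean of 50 counts only through the treated libraries. Its r therefore shows little beyond the step between control and treatment. For *Me1* they were *P4ha2* (a collagen prolyl hydroxylase subunit, r = 0.9985), *Abcc4* (r = 0.9982) and *Abcc1* (r = 0.9974), the last of these being export pumps. *Abcc1* went from 107 cpm in control to 383 and 348 cpm. These r describe 9 libraries that fall into treated and untreated sets, and all these genes were higher in the treated set.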

How the data were processed

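Total RNA of 9 pooled samples was sequenced on the BGISEQ-500 after random priming, and per the labels and the methods the reads were mapped with Salmon 0.14.1 to the GENCODE M22 transcripts of GRCm38.p6. The authors deposited estimated counts per gene, summarized with tximport. The methods describe scaling by transcript length and library size, but 58.3% of deposited values above 10 were whole (within 1e-06), so the table was treated as unscaled. Before edgeR and DESeq2 these estimated counts were made whole by rounding. The legend of 1 figure gives a lower CHYL-sized concentration than the labels and methods, which were followed.

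Symbols were matched for 54346 of 54432 identifiers, and coordinates and the longest coding transcript came from GENCODE M21 (GRCm38). Genes exceeding 10 counts in 3 or more of 9 libraries were normalized by TMM (edgeR 4.0.16) and tested with limma 3.58.1 after voom in R 4.3.3, in 1 model of the 9 libraries with Benjamini-Hochberg adjustment over all 12637 genes, without a replicate block. Cpm use the TMM-scaled library size. The p-values measure the spread between 3 pools per group. The methods state biological and technical triplicates, with the samples of a condition pooled within 1 experiment, by which the 3 pools would be 3 experiments. The labels do not say whether the pools came from separate cultures, so they do not show whether that spread is technical. A gene at 0 counts can be stated to lie under 3 counts, for counting error only.

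The members and lists were chosen with earlier results of these data known. Named genes are the 10 members, in each list the 4 with the largest absolute SLR for VLDL-sized particles among those with an adjusted p under 0.05 and a mean of 50 counts or more in the higher group, the paralogs of members, and the 3 tested genes whose voom log2 cpm correlated best with *G6pdx* and with *Me1*. Some genes that this rule names are not reported here. The steps were tested on simulated data. Alternatives were DESeq2 1.42.0, edgeR's quasi-likelihood test, limma-trend (prior count 2), library size only, upper-quartile and DESeq2 size factors, no filter or more than 50 counts, only the groups compared, a replicate block, a term for replicate 3, each library left out and replicate 3 left out. Protein sequences of members and paralogs were not compared.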

Additional observations from a re-analysis of the deposited data

How the results depend on the processing

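After VLDL-sized particles 6 members were called in the reported fit, 5 with library size only and 7 with the replicate block or the term for replicate 3; after CHYL-sized particles 6 were called, or 7 with the block or that term; between particles 0 were called in every fit. Leaving out libraries gave 6 to 6, 6 to 6 and 0 to 0. The calls that changed were *Tkt* after VLDL-sized particles, lost with library size only (SLR 0.11, adjusted p = 0.055), and *Idh1*, gained with the replicate block (0.15 for both particles, adjusted p = 0.022 and 0.024) and with the term (0.15 for both, adjusted p = 0.013 and 0.015). Library size only shifted the median SLR of all genes to -0.094 and -0.079 and the share of calls that were higher from 49.9% and 49.6% to 31.3% and 29.8%, and with it *Pgls* went to -0.0329, -0.0237 and, between particles, -0.0092, as did *Pgd* between particles (-0.0012). With upper-quartile scaling *Pgls* between particles was -0.00063. Without 1 or more libraries, signs turned only in comparisons in which the member concerned had not passed. Against control the ranges were -0.0623 to 0.0498 (VLDL-sized) and -0.0366 to 0.0178 (CHYL-sized) for *Rpe* and -0.2086 to 0.0252 and -0.1232 to 0.1105 for *Nadk*. Between particles they were -0.0576 to 0.0633 for *Pgls*, -0.0104 to 0.0344 for *Pgd*, -0.0574 to 0.0545 for *Rpe*, -0.0162 to 0.00076 for *Tkt* and -0.0206 to 0.0187 for *Idh1*. The cause of these changes was not tested.

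Same-numbered libraries had correlated deviations of 0.089, 0.099 and 0.217 (VLDL-sized with control), 0.098, 0.024 and 0.269 (CHYL-sized with control) and 0, 0.101 and 0.277 (between particles), so the numbers were not taken to pair the libraries. In the VLDL-sized and control groups every library correlated best with its own number, which is a hint from the data and not the design. The block raised the calls over all genes from 4500 to 6058 (VLDL-sized), from 3249 to 4949 (CHYL-sized) and from 0 to 147 (between particles), where the term for replicate 3 gave 239, the fit without replicate 3 gave 257 and DESeq2 24. The 3 calls of hexose entry after CHYL-sized particles became 5 with the block or the term. Between particles the block or the term, or the removal of replicate 3, called at most 1 gene of the list of other NADPH and NADP producers, 1 of the list of reductases and 2 of the lipid synthesis list.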
